A study of Rattus norvegicus with 119 samples.

Results

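Ionotropic glutamate receptors of the AMPA and kainate classes were measured at the RNA level in rat hippocampus through their 9 subunit genes: the AMPA subunits Gria1, Gria2, Gria3 and Gria4 and the kainate subunits Grik1, Grik2, Grik3, Grik4 and Grik5. Members were all probe sets whose only gene symbol in the array's probe table was 1 of these names. That gave 9 probe sets, 1 per gene, of 29214 probe sets and 14506 gene symbols in all. All 9 gene identifiers matched RefSeq under the same symbols.

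The series profiled the hippocampus of Sprague Dawley, Long Evans and Fischer rats of both sexes on Affymetrix arrays, with 1 array per animal, and asked how strain, sex, dose and period shape the response to developmental lead. Lead-exposed rats received lead acetate in their chow at 250 or 750 ppm. In the perinatal groups the dams ate this chow, beginning 10 days ahead of mating, and their pups changed to control chow at weaning. In the postnatal groups lead chow was given between birth and postnatal day 45. Control rats ate control chow throughout, and a single control group per strain and sex served both periods. All animals were sampled on postnatal day 55, so the postnatal groups had been off lead for a shorter time than the perinatal groups. Each of the 30 groups held 4 animals, except the Sprague Dawley male controls with 3. Which animals were littermates is not known from the labels, and p-values rest on the spread between single animals.

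AMPA receptors carry most of the fast excitatory current in the brain. They are tetramers, and edited GluA2, the product of Gria2, makes them nearly impermeable to calcium. Kainate receptors act on both sides of the synapse: GluK1 to GluK3 (Grik1 to Grik3) can form channels by themselves, whereas GluK4 and GluK5 (Grik4 and Grik5) need a partner among them. In rodent hippocampus kainate receptors are best known from the mossy fibre synapse onto CA3 pyramidal cells, where Grik4 RNA is enriched.

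The array values are log2 intensities. Levels were compared between animals within a probe set and never between probe sets. Array medians lay between 7.36 and 7.57, and correlations between array pairs between 0.979 and 0.9975. Markers of principal neurons (Slc17a7, Camk2a), dentate granule cells (Prox1), CA1 (Fibcd1) and interneurons (Gad1) were above the array median in every array. So were the CA3 markers Bok, Cpne4 and Nectin3. Of the other listed markers of these cells, the interneuron marker Vip was above it in 10 arrays and the CA3 marker Iyd in 0. Markers of choroid plexus, a tissue next to the hippocampus, varied widely: Ttr ranged from 8.02 to 13.77. The X-linked gene Eif2s3 was at the level of the opposite sex in 8 arrays: 3 of the Long Evans controls, 1 Sprague Dawley female control and 4 Sprague Dawley rats given 750 ppm, of which 1 was perinatal. The labels were kept. Within each group the animals were also split into a lower and an upper set by the number in their labels, whose meaning is not given. The split was made because earlier results of these data had shown arrays that follow these numbers. The p-values between the sets are therefore a description. In Fischer rats the sets differed at 17793 probe sets. Precision is set by how many animals a comparison holds. In tissue RNA, fewer cells of a type and less RNA per cell cannot be told apart.

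Promoter sequence was looked up in RefSeq (build GRCr8) for the members, and 6 had an entry. Gria1, Gria2 and Gria3 had none. Each entry runs from 250 bases before to 50 bases after the annotated start. The 3 kainate promoters below are shown because their genes had the largest strain differences among the members. Capitals mark the GC box, GGGCGG or its reverse complement CCGCCC, searched on both strands. Grik1 lies at chr11:41056454-41056753 (minus strand), Grik3 at chr5:143052192-143052491 (plus strand) and Grik5 at chr1:89794860-89795159 (minus strand).
Grik1: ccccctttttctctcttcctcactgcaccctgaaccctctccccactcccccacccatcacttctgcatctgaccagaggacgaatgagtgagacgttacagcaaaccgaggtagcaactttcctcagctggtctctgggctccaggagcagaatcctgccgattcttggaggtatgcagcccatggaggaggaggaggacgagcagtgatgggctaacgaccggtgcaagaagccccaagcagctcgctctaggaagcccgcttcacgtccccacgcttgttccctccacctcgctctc
Grik3: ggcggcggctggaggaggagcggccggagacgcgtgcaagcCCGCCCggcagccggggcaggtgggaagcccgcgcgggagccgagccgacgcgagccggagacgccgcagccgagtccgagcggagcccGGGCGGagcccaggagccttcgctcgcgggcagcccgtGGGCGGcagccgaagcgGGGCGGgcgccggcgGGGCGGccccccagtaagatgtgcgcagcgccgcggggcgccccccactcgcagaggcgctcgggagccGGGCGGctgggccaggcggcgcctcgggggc
Grik5: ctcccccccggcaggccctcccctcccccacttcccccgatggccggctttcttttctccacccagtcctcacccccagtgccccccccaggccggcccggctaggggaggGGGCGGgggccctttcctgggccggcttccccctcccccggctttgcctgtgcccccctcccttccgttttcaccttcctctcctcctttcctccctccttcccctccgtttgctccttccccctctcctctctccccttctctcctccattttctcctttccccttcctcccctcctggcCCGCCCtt
The Grik3 promoter held 6 GC boxes, the Grik5 promoter 2 and the Grik1 promoter 0, and 33.1% of 33469 rat promoters of the same length held at least 1. Grik3 had 82.3% G and C and 49 CpG sites, more CpG sites than 99.1% of promoters. Grik5 had 69% G and C with 11 CpG sites, and Grik1 had 58.7% with 12, against medians of 51.7% and 7 over all promoters. Gria4 (60.3%, 15 CpG sites), Grik2 (50.3%, 8) and Grik4 (44%, 4) held no GC box. The TATA box letters TATAAA, found in 14.2% of promoters, were in none of the 6, and the cAMP response element letters TGACGT, found in 7.94%, were in Grik2 alone. A match is a description of letters. The sequence is that of the reference rat, and the alleles of the 3 strains were not read here.

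The members' levels varied within narrow ranges, and how much of that lay between strains, label-number sets, groups and animals differed from gene to gene. Over 30 group means the range within a probe set went from 0.20 (Gria1, Gria2 and Gria3) to 0.46 (Grik3) on the log2 scale. Ordered by mean, no pair of neighbouring groups differed by more than the pooled SD within groups, in any of the 9 probe sets. The gaps reached at most 0.088 for Grik1 (pooled SD 0.118). Strain took the largest share of the sum of squares over arrays for Grik5 (57.8%) and Gria2 (31.6%). For the other 7 the spread between animals that strain, set and group left over was the largest share, from 32.8% for Gria1 to 60.2% for Grik4. Strain took 30.1% for Gria1, 32.3% for Gria4 and for Grik1, 22.2% for Gria3, 22% for Grik2, 19.9% for Grik3 and 5.19% for Grik4. Label-number sets within strain took 26% for Gria2, 25.9% for Gria1, 18.3% for Gria3 and between 3.2% (Grik4) and 12.3% (Grik5) for the others. The groups of sex and treatment took a larger raw share than strain for Grik4 (31.4%) and Grik3 (22.5%). These shares are not scaled for the number of means fitted. By chance alone 30 groups take a larger share than 3 strains, so the shares do not rank treatment above strain. For the other members the groups' share ran from 5.86% (Grik5) to 17.4% (Grik2).

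**Figure D1:**
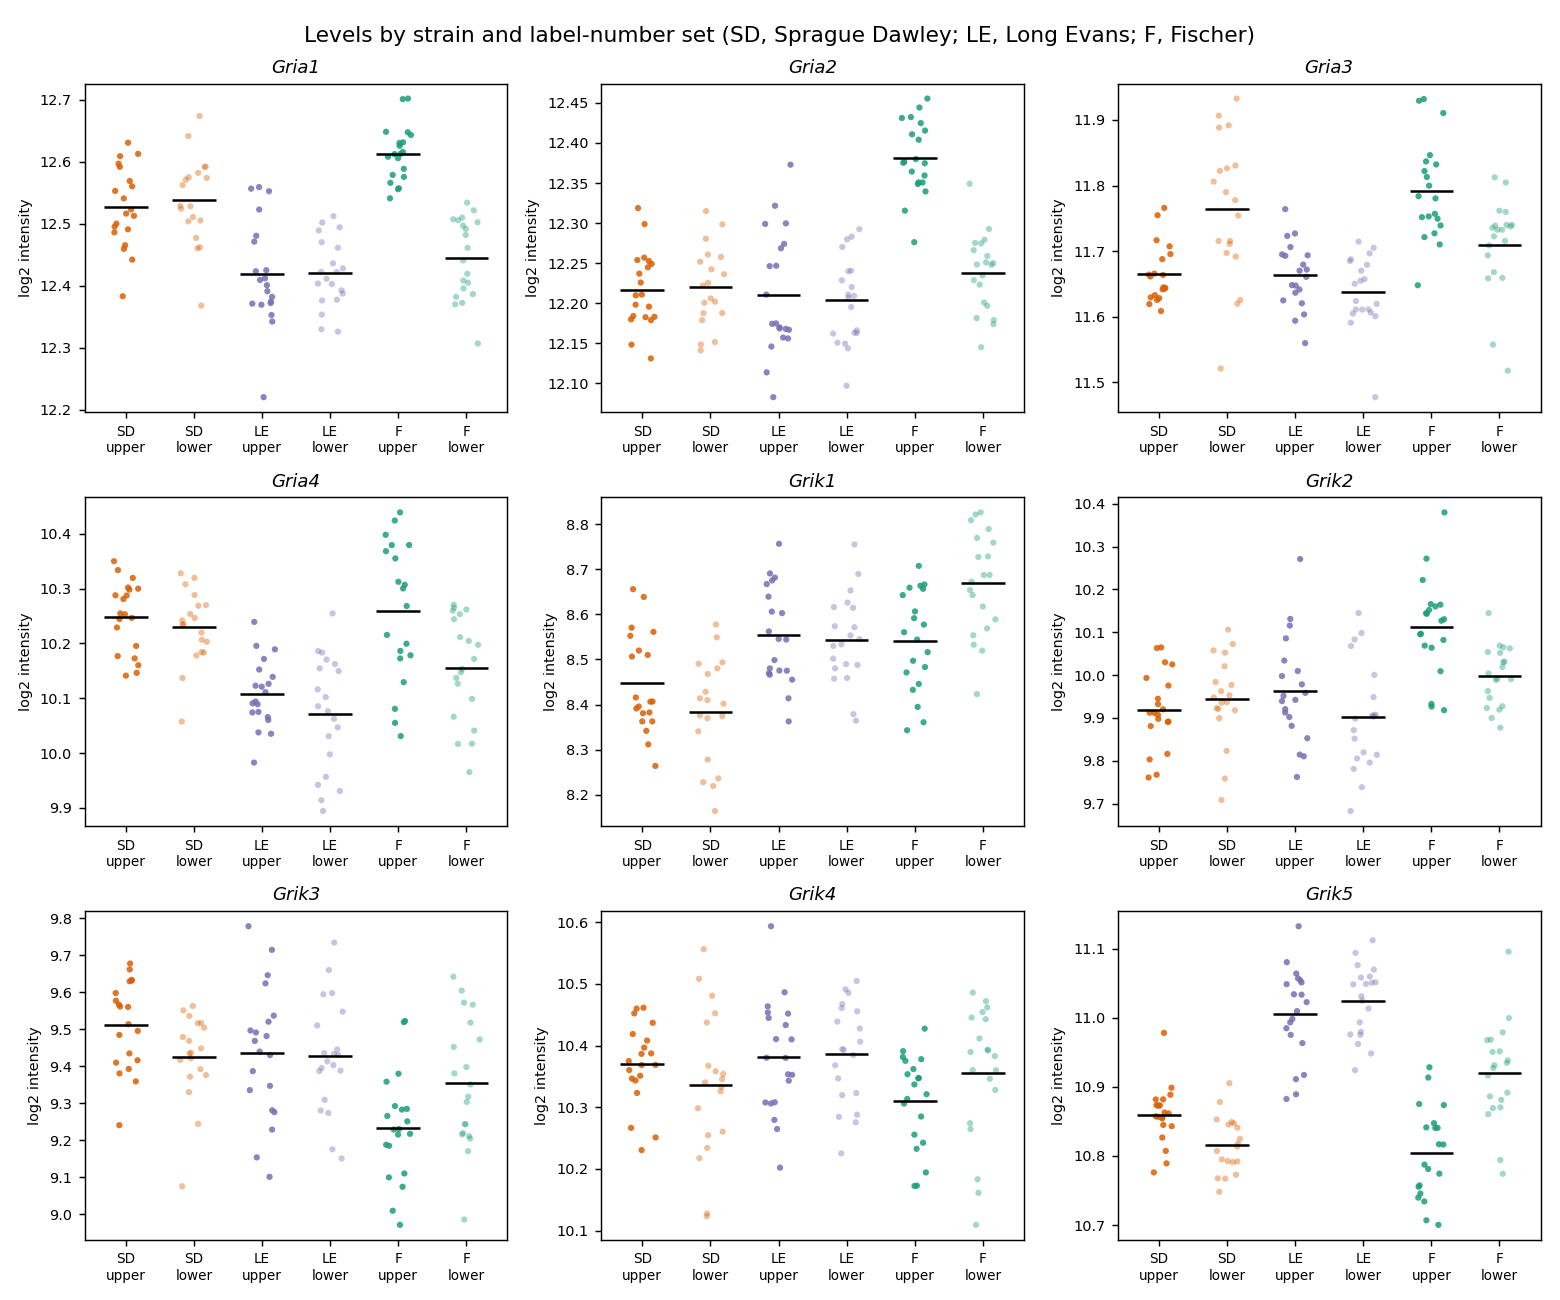
Log2 intensity of each member in every animal, by strain and label-number set (Sprague Dawley, SD; Long Evans, LE; Fischer, F). Points are animals and bars are means (n = 20 per set, 19 in the lower Sprague Dawley set). Gria1 and Gria2 stand highest in the upper Fischer set (means 12.61 and 12.38), and Grik5 stands highest in both Long Evans sets (11.01 upper, 11.02 lower).

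Among the AMPA subunits, Gria1 (GluA1, a main subunit of hippocampal pyramidal cells) was lower in Long Evans rats than in the other strains. Its lowest, median and highest levels were 12.37, 12.53 and 12.67 in 39 Sprague Dawley rats, 12.22, 12.41 and 12.56 in 40 Long Evans rats and 12.31, 12.54 and 12.70 in 40 Fischer rats. The ranges overlapped, with the Long Evans animals toward the low end. Over all groups, Gria1 was higher by 0.11 ± 0.02 (log2, SE) in Sprague Dawley than in Long Evans rats (limma adjusted p = 4.7e-07) and lower by -0.11 ± 0.02 in Long Evans than in Fischer rats (adjusted p = 8.8e-07). Between Sprague Dawley and Fischer rats Gria1 differed by 0.00 ± 0.02.

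Gria2 (GluA2, which sets calcium permeability) was highest in Fischer rats. It ranged from 12.13 to 12.32 with a median of 12.21 in Sprague Dawley rats, from 12.08 to 12.37 with a median of 12.20 in Long Evans rats, and from 12.14 to 12.46 with a median of 12.30 in Fischer rats. All 10 of the highest group means of Gria2 were the Fischer groups. The difference was -0.09 ± 0.02 for Sprague Dawley minus Fischer (adjusted p = 4.1e-06; -0.02 and not called within the lower label-number sets) and -0.10 ± 0.02 for Long Evans minus Fischer (adjusted p = 1e-07).

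Gria3 (GluA3, which pairs mainly with GluA2) had medians of 11.70 in Sprague Dawley, 11.65 in Long Evans and 11.74 in Fischer rats. Gria4 (GluA4, known from interneurons and from early postnatal pyramidal cells) had medians of 10.25, 10.09 and 10.20 in the same order of strains. Both were lower in Long Evans than in Fischer rats (-0.10 ± 0.02 for Gria3 and -0.12 ± 0.02 for Gria4). Both were also higher in Sprague Dawley than in Long Evans rats, Gria3 by 0.06 ± 0.02 (adjusted p = 0.0038) and Gria4 by 0.15 ± 0.02 (adjusted p = 9.6e-09). All 4 AMPA subunits were thus called lower in Long Evans than in Fischer rats, beside 33.4% of all probe sets called lower. Within the lower label-number sets the calls of Gria1, Gria2 and Gria3 were lost.

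Among the kainate subunits, Grik5 (GluK5, a high-affinity partner subunit) had the smallest p of all members between strains. It was highest in Long Evans rats, with a lowest, median and highest level of 10.75, 10.85 and 10.98 in Sprague Dawley, 10.88, 11.03 and 11.13 in Long Evans and 10.70, 10.87 and 11.10 in Fischer rats. Its 10 highest group means were the 10 Long Evans groups. Grik5 was lower by -0.18 ± 0.02 in Sprague Dawley than in Long Evans rats (limma adjusted p = 6.2e-16) and higher by 0.15 ± 0.02 in Long Evans than in Fischer rats (adjusted p = 1.7e-13).

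Grik1 (GluK1, prominent in hippocampal interneurons) was lowest in Sprague Dawley rats: 8.16, 8.41 and 8.66 there (lowest, median, highest), against 8.36, 8.54 and 8.76 in Long Evans and 8.34, 8.61 and 8.83 in Fischer rats. The differences were -0.13 ± 0.03 against Long Evans (adjusted p = 1.4e-05) and -0.19 ± 0.03 against Fischer rats (adjusted p = 5.7e-09). Grik3 (GluK3, a subunit of low glutamate affinity) went the other way and was lowest in Fischer rats, with medians of 9.48 in Sprague Dawley, 9.43 in Long Evans and 9.26 in Fischer rats. It was higher by 0.18 ± 0.03 in Sprague Dawley than in Fischer rats (adjusted p = 5.7e-06; 0.07 and not called within the lower label-number sets) and by 0.14 ± 0.03 in Long Evans than in Fischer rats (adjusted p = 0.00017). Its ranges overlapped broadly (9.08 to 9.68 in Sprague Dawley, 9.10 to 9.78 in Long Evans, 8.97 to 9.64 in Fischer rats).

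Grik2 (GluK2, the main pore-forming kainate subunit of principal cells) had medians of 9.93 in Sprague Dawley, 9.91 in Long Evans and 10.06 in Fischer rats. It was lower than in Fischer rats by -0.12 ± 0.03 in both comparisons. Grik4 (GluK4, a partner subunit enriched in CA3) had strain medians close together, 10.36 in Sprague Dawley, 10.39 in Long Evans and 10.35 in Fischer rats. Its Long Evans minus Fischer difference was 0.05 ± 0.02 (adjusted p = 0.019).

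In counts, 5 members were called (adjusted p under 0.05) between Sprague Dawley and Long Evans rats over all groups, beside 62.2% of all probe sets. Of these 5, 3 were higher (34.4% of all probe sets) and 2 lower (27.8%). Between Sprague Dawley and Fischer rats 4 were called, beside 40.7% of all probe sets: 1 higher (19.8%) and 3 lower (20.8%). Between Long Evans and Fischer rats 8 were called, beside 61.2%: 3 higher (27.8%) and 5 lower (33.4%). Grik1, at -0.06 (adjusted p = 0.058), was called as well with the label-number sets as a block (adjusted p = 0.039), after a further quantile normalization (-0.08, 0.0017), with the choroid plexus covariate (0.039) and with the arrays against their sex label left out (0.033). The members' median difference was 0.01 for Sprague Dawley minus Long Evans, -0.02 for Sprague Dawley minus Fischer and -0.10 for Long Evans minus Fischer, beside 0.019, 0.005 and -0.014 over all probe sets.

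Within each label-number set these strain differences took other sizes. Gria1 was higher in Sprague Dawley than in Fischer rats by 0.09 ± 0.02 within the lower sets (limma adjusted p = 0.00038) and lower by -0.09 ± 0.02 within the upper sets (adjusted p = 0.0029). Grik5 showed the opposite pair, -0.11 ± 0.02 within the lower sets (adjusted p = 0.00019) and 0.06 ± 0.02 within the upper sets (adjusted p = 0.022). For both genes the direction between Sprague Dawley and Fischer rats therefore depended on the set. Of the 4 members called over all animals in this comparison, 3 lost the call within the lower sets. Gria2 differed by -0.02 ± 0.02 there (adjusted p = 0.47), against -0.16 ± 0.02 within the upper sets. Grik2 differed by -0.05 ± 0.03 within the lower sets (adjusted p = 0.16) and by -0.19 ± 0.03 within the upper sets. Grik3 differed by 0.07 ± 0.03 within the lower sets (adjusted p = 0.061) and by 0.28 ± 0.05 within the upper sets. Grik1 was lower in both, by -0.29 ± 0.04 and -0.09 ± 0.03.

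Between Long Evans and Fischer rats, Gria1 differed by -0.03 ± 0.02 within the lower sets (adjusted p = 0.32) and by -0.19 ± 0.02 within the upper sets, and Gria2 by -0.03 ± 0.02 (adjusted p = 0.13) and -0.17 ± 0.02. The calls of Gria3 (-0.07, adjusted p = 0.051) and Grik4 (0.03, adjusted p = 0.38) were also lost within the lower sets, and that of Grik1 was gained (-0.12, adjusted p = 0.0071). Grik5 was higher in Long Evans than in Fischer rats in both sets (0.11 lower, 0.20 upper). It was also lower in Sprague Dawley than in Long Evans rats in both (-0.21 lower, -0.15 upper). Gria1, Gria4 and Grik1 likewise kept their calls in both sets between Sprague Dawley and Long Evans rats, whereas Gria3 was higher within the lower sets alone (0.13, against 0.00 within the upper sets).

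**Figure D2:**
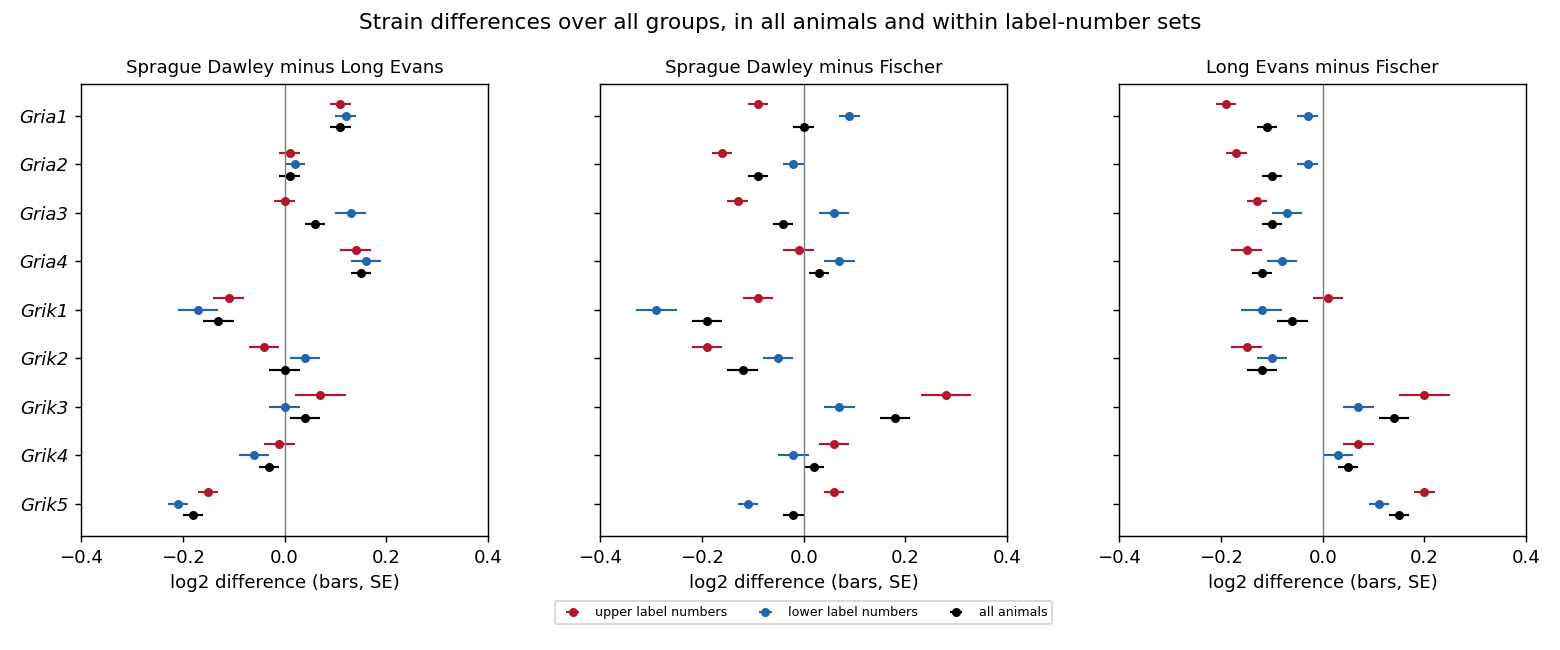
Strain differences of each member over all groups (log2; points are limma estimates and bars their SE) in animals of the upper label numbers, of the lower label numbers, and in all animals. The Sprague Dawley minus Long Evans values of Gria1, Gria4, Grik1 and Grik5 lie on the same side of 0 in both sets, while the Sprague Dawley minus Fischer values of Gria1 and Grik5 lie on opposite sides.

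In the control animals alone, 3 members were called between Sprague Dawley and Long Evans rats, beside 24.5% of all probe sets. Gria1 had levels of 12.49, 12.51 and 12.60 (lowest, median, highest) in 7 Sprague Dawley controls and of 12.33, 12.39 and 12.47 in 8 Long Evans controls. These ranges did not overlap, and the difference was 0.13 ± 0.05 (limma adjusted p = 0.021). The share of all probe sets without overlap was not counted. Gria4 was higher by 0.13 ± 0.05 (adjusted p = 0.047) and Grik5 lower by -0.14 ± 0.04 (adjusted p = 0.0058). Without the arrays against their sex label, 3 of the Long Evans controls and 1 of the Sprague Dawley controls, no member was called, though the differences were of much the same size (Gria1 0.14, limma adjusted p = 0.062; Gria4 0.13, 0.14; Grik5 -0.11, 0.098). Within the upper label-number sets no member was called either. Gria1 differed there by 0.10 (limma adjusted p = 0.2), Gria4 by 0.16 (0.075) and Grik5 by -0.09 (0.2). The call of Gria4 was also lost without any 1 of 12 control animals (adjusted p from 0.054 to 0.13). That of Gria1 was lost without Sprague Dawley male control 3 (0.12, adjusted p = 0.063).

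Between Sprague Dawley and Fischer controls 1 member was called, beside 10.5% of all probe sets. Grik1 had levels of 8.16, 8.41 and 8.64 in Sprague Dawley controls and of 8.36, 8.62 and 8.76 in Fischer controls, which overlapped, and it was lower by -0.18 ± 0.06 (adjusted p = 0.049). It was -0.41 ± 0.09 within the lower sets and -0.01 ± 0.07 within the upper sets. The call was also lost with array weights (-0.13, adjusted p = 0.16), after a further quantile normalization (-0.16, adjusted p = 0.053), without the arrays against their sex label (-0.14, adjusted p = 0.16) and without any 1 of 12 control animals, where the adjusted p rose to 0.31 at most (without Sprague Dawley male control 1). Grik3 stood at 9.39, 9.48 and 9.66 in Sprague Dawley controls and at 9.01, 9.33 and 9.47 in Fischer controls, a difference of 0.22 ± 0.08 that was not called (adjusted p = 0.05 as rounded). It was called with the label-number sets as a block (0.21, adjusted p = 0.036), after a further quantile normalization (0.24, 0.017), with array weights (0.24, 0.017), with the filter at the 40th percentile (0.22, 0.035) and within the upper sets (0.37, 0.012), but not within the lower sets (0.04, 0.77).

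Between Long Evans and Fischer controls 3 members were called, beside 25.1% of all probe sets. Gria1 was lower by -0.14 ± 0.04 (adjusted p = 0.0091), Gria2 was lower by -0.10 ± 0.04 (adjusted p = 0.043) and Grik5 was higher by 0.13 ± 0.04 (adjusted p = 0.005). Grik5 levels were 10.96, 10.98 and 11.05 in Long Evans controls and 10.73, 10.87 and 11.00 in Fischer controls, so that the top of the Fischer range reached into the Long Evans range. Without the arrays against their sex label 1 call was left, that of Gria1 (-0.15, adjusted p = 0.031), while Gria2 (-0.11, adjusted p = 0.075) and Grik5 (0.12, adjusted p = 0.056) had differences of much the same size as with all arrays. Within the lower sets no call was left. The call of Gria2 was lost without any 1 of 9 control animals, with the smallest difference when Fischer male control 3 was left out (-0.07, adjusted p = 0.17).

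In Fischer rats the label-number sets themselves differed at 8 of the 9 members, beside 60.9% of all probe sets. Of these members 5 were higher in the upper set (18.6% of all probe sets) and 3 lower (42.3%). The 5 were the 4 AMPA subunits and Grik2, of which Gria3 lost its call after a further quantile normalization (0.02, adjusted p = 0.59). Gria1 had a lowest, median and highest level of 12.54, 12.61 and 12.70 in the 20 animals of the upper set and of 12.31, 12.45 and 12.53 in the 20 of the lower set. The sets did not overlap, and the difference was 0.17 ± 0.02 (limma adjusted p = 1.1e-09). The share of all probe sets without overlap between these sets was not counted. Gria2 was higher by 0.14 ± 0.02 (12.28 to 12.46 in the upper set, 12.14 to 12.35 in the lower set), Gria3 by 0.08 ± 0.03, Gria4 by 0.10 ± 0.04 and Grik2 by 0.11 ± 0.03.

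Grik1 was lower in the upper set by -0.13 ± 0.03, Grik3 by -0.12 ± 0.04 and Grik5 by -0.12 ± 0.02 (adjusted p = 0.00015). Over all probe sets the median difference was -0.067. Marker lists moved with these sets as well. The mean of the 5 astrocyte markers lay between 11.48 and 11.63 in the upper set and between 11.29 and 11.43 in the lower set, all 5 called higher. All 6 meninges markers were called lower, and of the 5 principal-neuron markers 3 were called higher and 1 lower. Of 8 interneuron markers 3 were called higher and 5 lower, and their mean lay between 9.79 and 10.09 in the upper set and between 10.03 and 10.18 in the lower set. Of 3 dentate granule cell markers 2 were called higher (list median 9.78 in the upper and 9.66 in the lower set). The part of other cells in the subunit differences was not tested.

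In Sprague Dawley rats 1 member was called between the sets, beside 18.9% of all probe sets: Gria3, lower by -0.10 ± 0.03 in the upper set (11.61 to 11.77, against 11.52 to 11.93 in the lower set; adjusted p = 0.013). In Long Evans rats limma called none of the members (0.0993% of all probe sets), and none had an unadjusted p under 0.05. Each group held animals of both sets, so the comparisons of lead with control below had both sets on either side.

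No member was called as changed by lead in any strain, sex, period or dose. The lack of a call does not exclude changes within the confidence intervals given below. Each of 24 exposed groups was compared with the controls of its own strain and sex, so that 4 contrasts at a time used the same control animals. Of the 216 tests, limma called 0, and 5 had an unadjusted p under 0.05. The smallest adjusted p was 0.63. Over all probe sets the share called ranged from 0% in 10 of the 24 contrasts to 0.133% in Long Evans females after perinatal 750 ppm. In Long Evans males it was 0.0411% and 0.0548% after perinatal 250 and 750 ppm and 0.024% and 0.0479% after postnatal 250 and 750 ppm. In Sprague Dawley rats it was at most 0.0274% and in Fischer rats at most 0.0137%. Differences in the members ran from -0.16 (Grik3 in Sprague Dawley males, perinatal 750 ppm) to 0.23 (Grik3 in Fischer males, postnatal 750 ppm), and precision differed between members. The 95% confidence intervals of single groups lay between -0.34 and 0.46 for Grik3, whose median SE was 0.107, between -0.18 and 0.21 for Grik5 (median SE 0.046) and between -0.15 and 0.22 for Gria2 (median SE 0.05). Among the AMPA subunits the differences lay between -0.09 and 0.11, with Gria4 at both ends, and those of Gria2 between -0.04 and 0.08. Among the kainate subunits the differences of Grik5 spanned the narrowest range (-0.05 to 0.10) and those of Grik3 the widest.

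**Figure D3:**
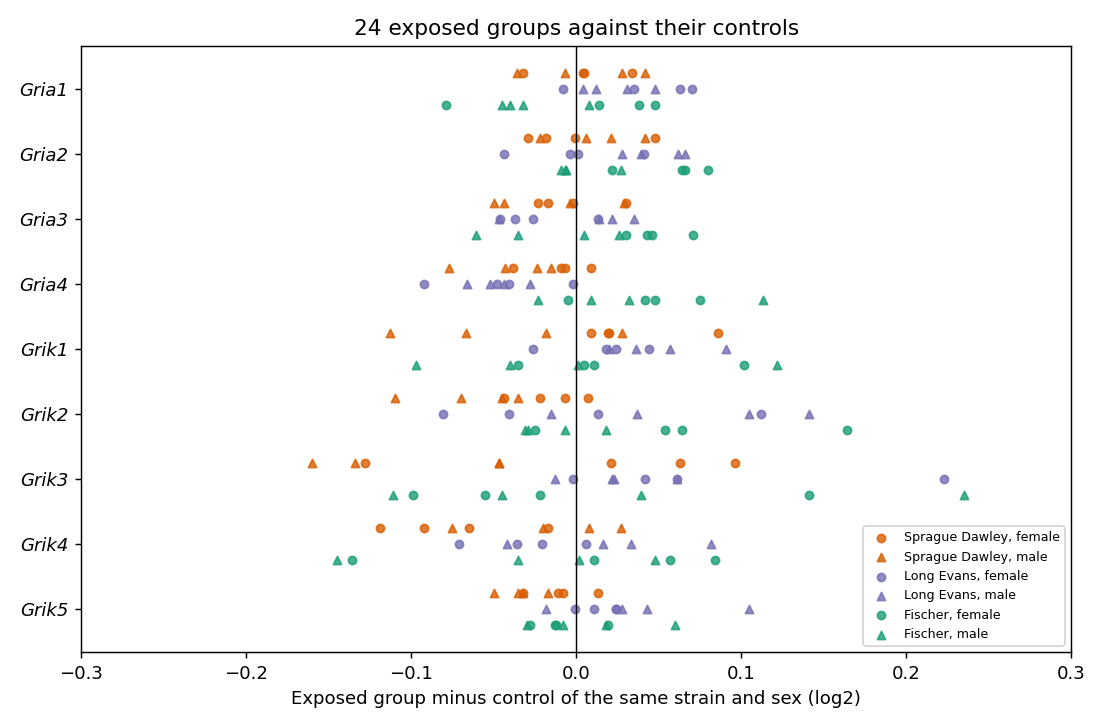
Difference of each of 24 exposed groups from the control group of the same strain and sex (log2), for each member. Points are group differences by strain and sex. All lie between -0.16 and 0.23, and the widest spread is that of Grik3.

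In the 2 contrasts given first here, the groups did not overlap although the member was not called. How many of the 216 tests parted in this way was not counted. With 4 animals a side, some of 216 tests part in this way by chance. The share of all probe sets without overlap was not counted, so both are given as a description. Grik5 was 11.11, 11.09, 11.05 and 11.13 in Long Evans males after perinatal 750 ppm and 11.02, 10.98, 10.96 and 11.01 in their controls. Every exposed animal was above every control, by 0.10 ± 0.05 on average (limma unadjusted p = 0.029, adjusted p = 0.63), beside 0.0548% of probe sets called. Grik3 was 9.60, 9.73, 9.47 and 9.65 in Long Evans females after perinatal 750 ppm and 9.39, 9.39, 9.35 and 9.43 in their controls, again with no overlap (0.22 ± 0.12, unadjusted p = 0.065, adjusted p = 0.9). Without the arrays against their sex label, which include 1 of these 4 male and 2 of these 4 female controls, the unadjusted p was 0.039 for Grik5 and 0.18 for Grik3. Grik2 in Fischer females after postnatal 250 ppm was 10.06, 10.03, 10.15 and 10.38, against 9.99, 9.99, 10.06 and 9.93 in their controls. The groups overlapped, and the difference of 0.16 rested mostly on the animal at 10.38 (unadjusted p = 0.049).

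The mean of the 8 lead effects of a strain gave narrower bounds, from 32 exposed animals against 8 controls (7 in Sprague Dawley). No member was called in Sprague Dawley (0.0171% of all probe sets), Long Evans (0.212%) or Fischer rats (0%), and none of the 27 tests had an unadjusted p under 0.05. The differences lay between -0.05 and 0.05. The largest falls were those of Gria4 in Long Evans rats, at -0.05 ± 0.04 (10.08 exposed, 10.13 control), and of Grik4 and Grik3 in Sprague Dawley rats (-0.04 each). The highest was Grik3 in Long Evans rats, at 0.05 ± 0.07. All 95% confidence intervals lay between -0.14 and 0.18, which is 0.907 to 1.14 times the control level.

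Over the 3 strains together the mean effect ranged from -0.02 (Grik4) to 0.02 (Gria2), with intervals from -0.06 to 0.08, or 0.958 to 1.05 times control, and no member was called (0.024% of all probe sets). The mean effect of no member was called as different between Sprague Dawley and Long Evans (0.0787%), between Sprague Dawley and Fischer (0.0103%) or between Long Evans and Fischer rats (0.13%). None of these tests had an unadjusted p under 0.05. The mean level of 6 choroid plexus markers had a Pearson correlation close to 0 with most members over all arrays, 39 or 40 per strain (r from -0.03 for Gria4 to -0.30 for Grik5, group and set means removed, given as a description).

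**Figure D4:**
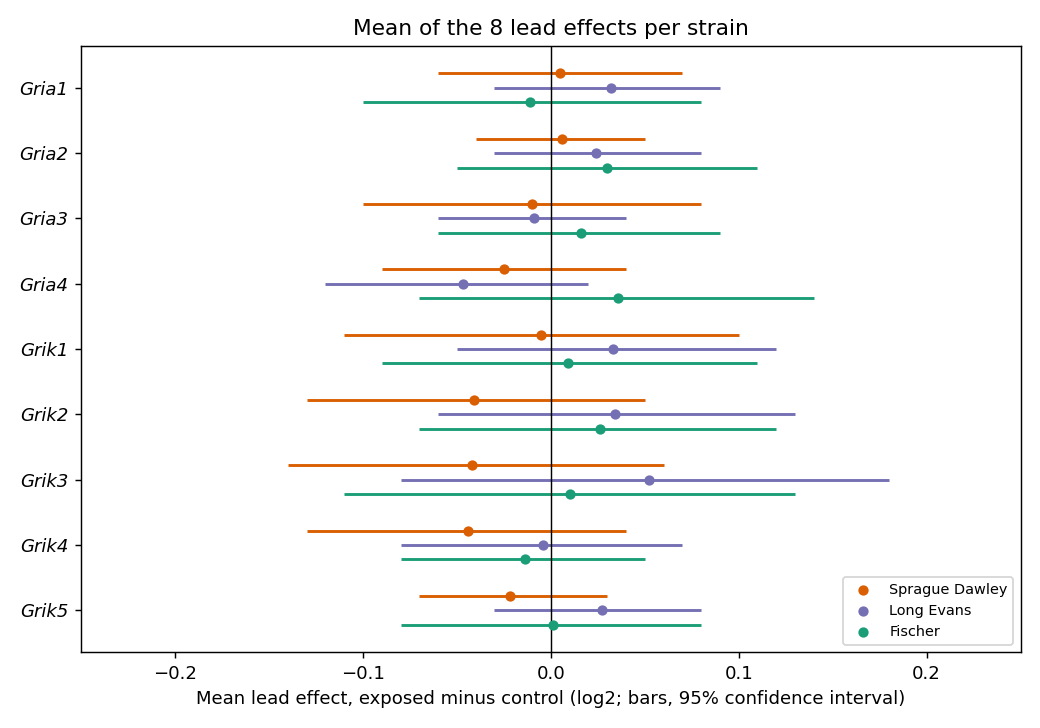
Mean lead effect of each member per strain (exposed minus control, log2), with bars for the 95% confidence interval (32 exposed animals, with 8 controls in Long Evans and Fischer and 7 in Sprague Dawley rats). All intervals include 0 and lie between -0.14 and 0.18.

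Dose, period and sex were compared within strain. No member was called for 750 against 250 ppm in Sprague Dawley (0.00342%), Long Evans (0.0548%) or Fischer rats (0.0719%), and 3 of 27 tests had an unadjusted p under 0.05. For postnatal against perinatal exposure none was called either (0.0411%, 0.065% and 0.00342% in the same order of strains), with 2 of 27 under 0.05. Females minus males gave differences from -0.04 to 0.07 with no call (0.0171%, 0.0856% and 0.0822%), and the smallest adjusted p was 0.25, for Gria4 in Long Evans rats (10.12 in females, 10.06 in males). The lead effect of females minus that of males reached at most 0.11 and was not called (0.00342%, 0% and 0%), with no unadjusted p under 0.05.

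The lowest p-values of a lead contrast fell on 2 kainate subunits in Fischer rats, Grik3 and Grik4, though neither was called. The values of Grik4 were lower and those of Grik3 higher in the postnatal 750 ppm animals. Grik4 levels after postnatal 750 ppm were 10.16, 10.27, 10.17 and 10.19 in males and 10.18, 10.11, 10.17 and 10.36 in females. In controls they were 10.49, 10.33, 10.34 and 10.23 in males and 10.39, 10.36, 10.24 and 10.38 in females. Of the 8 exposed animals 6 lay below every control, and the other 2 lay within the control range. Such animal counts were made only for these 2 subunits, picked for their low p-values. The share of all probe sets parted as far was not counted, so the counts are a description. The male and female postnatal 750 ppm groups had the lowest Grik4 means of all 30 groups, at 10.20 and 10.21.

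Grik3 after postnatal 750 ppm was 9.64, 9.60, 9.52 and 9.22 in males and 9.57, 9.57, 9.38 and 9.29 in females, against 9.35, 9.30, 9.11 and 9.28 in control males and 9.40, 9.47, 9.36 and 9.01 in control females. Here 5 exposed animals lay above every control and the other 3 lay within the control range, again given as a description. The differences from control were 0.23 ± 0.11 in males (unadjusted p = 0.035) and 0.14 in females for Grik3, and -0.15 ± 0.06 in males (unadjusted p = 0.013) and -0.14 ± 0.06 in females (unadjusted p = 0.02) for Grik4. The adjusted p was 1 in each of these contrasts.

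Pooled over period and sex, Grik4 averaged 10.28 at 750 ppm and 10.38 at 250 ppm (-0.11 ± 0.03, limma unadjusted p = 0.00059, adjusted p = 0.29). With the label-number sets as a block the adjusted p was 0.064. Over doses, Grik3 averaged 9.38 after postnatal and 9.21 after perinatal lead (0.18 ± 0.05, unadjusted p = 0.0023, adjusted p = 0.65) and Grik4 10.29 and 10.37 (-0.09 ± 0.03, unadjusted p = 0.0034, adjusted p = 0.75). The dose and period contrasts share the postnatal 750 ppm animals.

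Marker levels in the same animals were as follows. The mean of 3 thalamus markers was 8.30 in males (8.20 to 8.42) and 8.24 in females (8.15 to 8.44) after postnatal 750 ppm, and 8.07 (7.96 to 8.19) and 8.17 (7.91 to 8.34) in control males and females. The mean of 5 principal-neuron markers was 12.08 and 12.05 in the exposed males and females and 12.14 and 12.12 in the controls. That of 4 CA3 markers was 9.02 and 9.06 in exposed males and females and 9.08 and 9.11 in controls. The mean of 6 choroid plexus markers was 9.59 and 9.30 in exposed males and females and 8.78 and 9.85 in controls. None of these markers was called in the Fischer dose or period contrast, and the part of dissection or cell makeup in the Grik3 and Grik4 values was not tested.

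**Figure D5:**
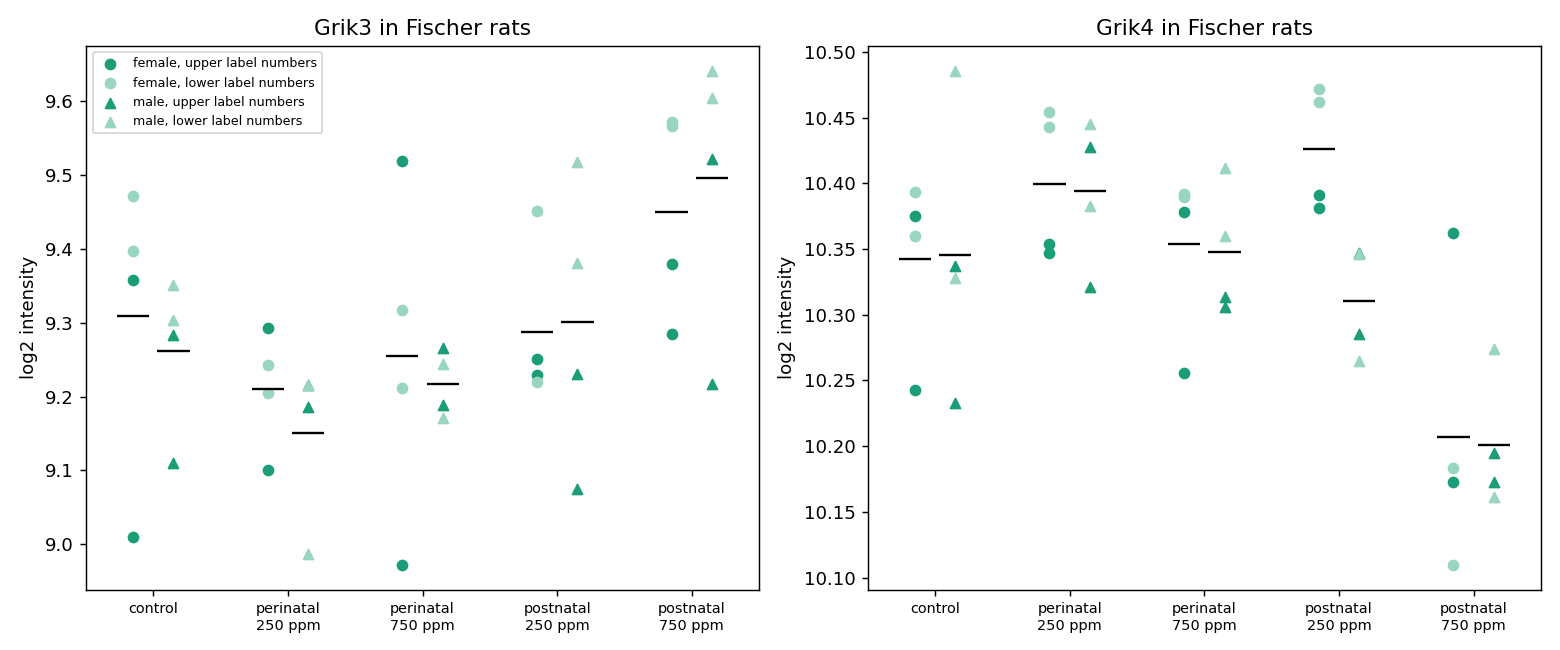
Log2 intensity of Grik3 (left) and Grik4 (right) in every Fischer rat by treatment, with females as circles, males as triangles, label-number sets as dark and light fill, and bars for the group means (n = 4). After postnatal 750 ppm the Grik3 means are 9.45 and 9.50 and the Grik4 means 10.21 and 10.20 in females and males.

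Genes of receptor trafficking, auxiliary subunits and synaptic partners were read from a list of 40 genes, which gave 33 probe sets (Grid1 had 2). None was called in any mean lead, dose or period contrast. The lowest unadjusted p was that of Abhd6, a lipase that limits AMPA receptor delivery, in the Long Evans minus Fischer difference of the mean lead effect (0.14 ± 0.04, unadjusted p = 0.00066, limma adjusted p = 0.24). Nptx2, a secreted pentraxin that gathers AMPA receptors at synapses, had -0.10 ± 0.04 as its mean lead effect in Fischer rats (adjusted p = 1).

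Between strains, over all groups, 27 of the 33 probe sets were called for Sprague Dawley minus Long Evans rats, 4 higher and 23 lower, beside 62.2% of all probe sets (34.4% higher, 27.8% lower). For Sprague Dawley minus Fischer rats 14 were called, 4 higher and 10 lower, a share near the 40.7% over all probe sets. For Long Evans minus Fischer rats 24 were called, 19 higher and 5 lower, beside 61.2% (27.8% higher, 33.4% lower). The list's median difference was -0.13, -0.01 and 0.08 in these comparisons, beside 0.019, 0.005 and -0.014 over all probe sets. Prrt1, an AMPA receptor partner also called SynDIG4, averaged 9.64 in Sprague Dawley, 10.16 in Long Evans and 9.64 in Fischer rats. It was lower by -0.53 ± 0.03 in Sprague Dawley than in Long Evans rats (adjusted p = 1.1e-27) and higher by 0.52 ± 0.03 in Long Evans than in Fischer rats (adjusted p = 1.8e-27). Cacng7, a regulatory subunit of AMPA receptors, went the same way (-0.41 ± 0.04 and 0.37 ± 0.04). Both genes also differed between the Fischer label-number sets, by -0.44 ± 0.03 (Cacng7) and -0.35 ± 0.03 (Prrt1) for upper minus lower. Strain differences of the listed genes were not read within sets.

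Over all groups, auxiliary subunits of kainate receptors were lower in Sprague Dawley rats than in both other strains. Neto1 averaged 11.71 in Sprague Dawley, 11.89 in Long Evans and 11.92 in Fischer rats, and Neto2 10.57, 10.77 and 10.77. The differences were -0.18 ± 0.02 and -0.21 ± 0.03 against Long Evans rats, and -0.21 ± 0.02 and -0.20 ± 0.03 against Fischer rats (limma adjusted p = 1.7e-09 or less). Neto2 also varied with the label-number set. It averaged 10.48 in the upper and 10.66 in the lower Sprague Dawley set, and 10.82 and 10.72 in the Fischer sets. Neto1 averaged 11.88 in the upper and 11.96 in the lower Fischer set. Strain differences of these 2 genes were not read within sets either. Nptxr, the membrane-bound neuronal pentraxin receptor, was lower in Sprague Dawley rats by -0.26 ± 0.03 against Long Evans and -0.30 ± 0.03 against Fischer rats. Nptx2 was lower in Long Evans than in Fischer rats by -0.37 ± 0.03. Between the Fischer label-number sets 5 of the 33 probe sets were higher and 18 lower in the upper set, beside 18.6% higher and 42.3% lower over all probe sets. Among them were Cacng7 (-0.44 ± 0.03), Prrt1 (-0.35 ± 0.03), the postsynaptic scaffold gene Dlg4 (-0.25 ± 0.02) and the NMDA receptor subunit gene Grin1 (0.15 ± 0.02).

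The members were also compared with each other and with all other genes across all arrays, 39 or 40 per strain, after the mean of each of 60 combinations of group and label-number set was taken off. The correlations are Pearson r, given as a description, and both values of a pair come from 1 array per animal. Gria1 and Gria2 varied together (r = 0.64), as did Gria2 and Gria3 (0.59), Gria3 and Gria4 (0.54), Grik1 and Grik2 (0.55) and Gria2 and Grik2 (0.55). Grik3 varied against Gria1 (-0.50) and against Grik4 (-0.39), and Gria1 and Gria4 showed nearly no relation (-0.07).

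For Grik3 the 3 most similar genes were the nicotinic receptor subunit gene Chrna4 (r = 0.84), the cholecystokinin B receptor gene Cckbr (0.82) and the neurexin ligand gene Nxph3 (0.78). For Grik4 they were the transcription factor genes St18 (0.77) and Lhx9 (0.74) and the sulfatase gene Sulf2 (0.74). For Grik5 they were Mdga1 (0.71), the netrin receptor gene Unc5a (0.70) and Med16 (0.70), for Grik1 the nociceptin receptor gene Oprl1 (0.66), Ralyl (0.62) and the activin receptor gene Acvr2a (0.58), and for Grik2 Rasa2 (0.72), Faf1 (0.69) and Taf1d (0.68). Gria1 was most like the calcineurin catalytic subunit gene Ppp3ca (0.71), the active zone gene Erc1 (0.69) and Snx12 (0.65). Gria2 was most like Rab1a (0.71), the cell adhesion gene Nrcam (0.70) and Zranb2 (0.69), Gria3 like Wdr47 (0.78), Cert1 (0.77) and the monoamine oxidase gene Maoa (0.76), and Gria4 like Oxr1 (0.71), Strbp (0.65) and Akap11 (0.63).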

How the data were processed

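For each probe set the authors deposited 1 log2 intensity per animal, and the submitters' processing notes name RMA and Partek. Their versions and settings are not given in the sources used here. Names of probe sets came from the platform annotation.

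Group means were fitted to all 29214 probe sets with limma 3.58.1 in R 4.3.3, per strain or over all arrays for comparisons between strains, with no filter and no pseudocount. Tests were two-sided with Benjamini-Hochberg adjustment over the whole array in each contrast, and an adjusted p under 0.05 was a call. Errors beside differences are standard errors. Figures used matplotlib 3.10.9. The fits were tested on simulated data.

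The members, gene lists and label-number sets were chosen with earlier results of these data known. All members are named. Of the 40 associated genes, called ones and up to 4 with the smallest p per contrast were eligible, and for likeness the 3 highest correlations per member.

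Alternatives were a joint fit of all arrays, quantile normalization on top of RMA, a filter at the 40th percentile, array weights and a choroid plexus covariate. Further ones were label-number sets as a block or alone, no arrays against their sex label, and each animal left out. For comparisons between strains, control animals alone were left out.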

Additional observations from a re-analysis of the deposited data

Results flagged for a closer look

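Each member was examined in every group of 4 animals for an animal whose gap to the others exceeded Dixon's critical share of the group's range. Chance alone marks about 1 in 20 such groups, and 16 of 261 were marked. No explanation was weighed. Below, far refers to this share of the range, and the gap itself can be small where the other animals lie close together. For scale, the pooled SD within groups was 0.071 for Gria2 and 0.099 for Gria4.

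In Fischer females, perinatal 250 ppm, Gria2 of replicate 1 stood far below the rest at 12.29, while the other 3 lay between 12.35 and 12.36. Gria2 also reached 12.10 in replicate 1 of Long Evans males, control, far below the others, of which the values ran from 12.16 to 12.17. In Fischer females, control, Gria3 of replicate 4 stood far below the rest at 11.65, while the other 3 lay between 11.73 and 11.75. Gria3 also reached 11.89 in replicate 1 of Sprague Dawley females, postnatal 250 ppm, far above the others, of which the values ran from 11.62 to 11.66. In Sprague Dawley females, postnatal 750 ppm, Gria4 of replicate 2 stood far below the rest at 10.18, while the other 3 lay between 10.24 and 10.25.

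In Long Evans males, postnatal 250 ppm, Grik1 of replicate 2 stood far above the rest at 8.61, while the other 3 lay between 8.47 and 8.49. Grik1 also reached 8.34 in replicate 3 of Sprague Dawley males, perinatal 250 ppm, far below the others, of which the values ran from 8.48 to 8.51. In Fischer males, perinatal 250 ppm, Grik2 of replicate 2 stood far below the rest at 9.95, while the other 3 animals were at 10.14. Grik2 also reached 10.10 in replicate 3 of Fischer females, perinatal 250 ppm, far above the others, of which the values ran from 9.92 to 9.93. In Fischer males, perinatal 250 ppm, Grik3 of replicate 2 stood far below the rest at 8.99, while the other 3 lay between 9.19 and 9.22. Grik3 also reached 9.45 in replicate 1 of Fischer females, postnatal 250 ppm, far above the others, of which the values ran from 9.22 to 9.25.

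In Fischer females, perinatal 750 ppm, Grik4 of replicate 3 stood far below the rest at 10.26, while the other 3 lay between 10.38 and 10.39. Grik4 also reached 10.46 in replicate 4 of Long Evans females, perinatal 750 ppm, far above the others, of which the values ran from 10.28 to 10.29. In Sprague Dawley males, perinatal 250 ppm, Grik4 of replicate 2 stood far above the rest at 10.48, while the other 3 lay between 10.35 and 10.37. In Fischer males, perinatal 750 ppm, Grik5 of replicate 4 stood far below the rest at 10.74, while the other 3 lay between 10.87 and 10.89. Grik5 also reached 10.89 in replicate 4 of Long Evans females, perinatal 250 ppm, far below the others, of which the values ran from 11.05 to 11.08.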

How the results depend on the processing

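The lead, dose, period and sex contrasts gave 0 calls for the members under the alternatives run, 10 settings in all, and with animals left out in turn. The smallest limma adjusted p was 0.064, for Grik4 in 750 minus 250 ppm in Fischer rats with label numbers as a block. Not every setting covered every contrast. Fits within the lower or upper label numbers alone were run for the mean lead effects per strain and over the strains. They were not run for the single-group, dose, period or sex contrasts, or for strain differences of the mean lead effect. For lead contrasts that joined or compared strains, only control animals were left out. Strain counts moved. For Sprague Dawley minus Long Evans controls the count of 3 became 0 without the arrays against their sex label and 0 within the upper label numbers. For Sprague Dawley minus Fischer controls the count of 1 became 2 with only probe sets above the 40th percentile, 2 with the block, 2 within the upper label numbers, but 0 with arrays against their sex label left out. For Long Evans minus Fischer controls the count of 3 became 1 without those arrays and 0 within the lower label numbers. Within sets, the count over all groups became 8 (upper, Sprague Dawley minus Fischer, from 4) and 5 (lower, Long Evans minus Fischer, from 8). These 2 comparisons, and the block with those arrays left out, were chosen after the data were seen. Array weights gave 2 calls for the upper minus lower label numbers of Sprague Dawley rats.

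Over all groups, Sprague Dawley minus Fischer reversed within the upper label numbers for Gria1 (-0.085) and Grik5 (0.055). Gria3 lost its call between the Fischer sets after a further quantile normalization (0.02, adjusted p = 0.59). The cause of these changes was not tested.

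For comparisons between strains, only the 23 control animals were left out, 1 at a time, and no exposed animal. The counts then ran from 1 to 3 for Sprague Dawley minus Long Evans controls and from 0 to 2 for Sprague Dawley minus Fischer controls. They ran from 2 to 4 for Long Evans minus Fischer controls and from 8 to 9 for Long Evans minus Fischer over all groups. With each animal of the strain left out, they ran from 8 to 9 for the Fischer sets and from 1 to 2 for the Sprague Dawley sets. No paired analysis was possible because the labels give no replicate number shared between groups. Limits are the 4 animals per group, unknown litters and the unknown meaning of the label numbers.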
